A study of Homo sapiens with 12 samples.

Results

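The messenger RNA of 44 cell cycle genes was followed in Daoy cells, an established human medulloblastoma (MB) line, after culture in medium conditioned by astrocytes. The genes were chosen by name for their phase of the cell cycle, 20 for G1/S and DNA replication and 24 for G2/M and mitosis, and 43 of them were found among the 25275 genes measured. UBE2C, which encodes a ubiquitin-conjugating enzyme of mitotic exit, was named among the 44, but no probe was matched to it and it has no value here. The hippocampi of newborn Sprague Dawley rats were the source of the astrocytes, and their supernatant, the astrocyte conditioned medium (ACM), replaced the medium of the Daoy cells during a single passage (P1) or over 3 successive passages (P3), each lasting 48 h. Control cells were passaged alike in full Dulbecco's medium (DMEM), and both media contained fetal bovine serum. Total RNA was labelled with Cy3 and hybridised to 12 single-colour Agilent arrays, with 3 arrays in each of the 4 groups P1 ACM, P1 DMEM, P3 ACM and P3 DMEM, from independent experiments by the labels. The RNA of a whole culture was measured, so that fewer cells in a phase and less RNA per cell cannot be told apart.

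Cells pass from growth (G1) through DNA synthesis (S) and a second gap (G2) to mitosis (M), driven by kinases that are switched on by cyclins. Genes needed at G1/S are induced by the E2F factors once the retinoblastoma protein releases them, and genes of G2/M are induced later through the MuvB complex with MYBL2 and then FOXM1. MuvB binds a promoter element named CHR, and CCAAT boxes, common in the same promoters, are bound by NF-Y. Both sets are expressed together in proliferating tumour cells such as MB lines, and their balance moves with the share of cells in each phase.

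Many promoters of the members carry these elements, and 4 promoters of each phase, picked because they do, are printed to show them. They are the 170 bases before the RefSeq start on the strand of the gene, from GRCh38.p14, and the capitals mark E2F words in the first 4 and CHR or CCAAT words in the others, on either strand.
PCNA: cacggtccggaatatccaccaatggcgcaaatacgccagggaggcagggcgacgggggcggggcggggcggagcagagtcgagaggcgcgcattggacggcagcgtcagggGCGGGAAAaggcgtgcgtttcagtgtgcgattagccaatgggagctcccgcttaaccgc
E2F1: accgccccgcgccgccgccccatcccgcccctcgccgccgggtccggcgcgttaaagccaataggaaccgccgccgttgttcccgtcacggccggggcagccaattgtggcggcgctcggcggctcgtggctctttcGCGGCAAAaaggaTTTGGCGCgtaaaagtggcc
MCM6: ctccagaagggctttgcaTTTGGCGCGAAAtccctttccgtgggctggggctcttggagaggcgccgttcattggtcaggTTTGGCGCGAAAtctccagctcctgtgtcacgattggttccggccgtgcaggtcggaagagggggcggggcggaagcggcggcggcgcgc
MCM7: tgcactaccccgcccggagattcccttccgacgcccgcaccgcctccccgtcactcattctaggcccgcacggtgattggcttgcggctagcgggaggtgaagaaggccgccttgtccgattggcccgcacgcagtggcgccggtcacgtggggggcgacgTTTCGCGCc
CDK1: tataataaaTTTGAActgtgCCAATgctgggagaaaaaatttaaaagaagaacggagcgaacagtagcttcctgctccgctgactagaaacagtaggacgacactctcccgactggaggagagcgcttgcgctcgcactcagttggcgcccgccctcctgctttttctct
PLK1: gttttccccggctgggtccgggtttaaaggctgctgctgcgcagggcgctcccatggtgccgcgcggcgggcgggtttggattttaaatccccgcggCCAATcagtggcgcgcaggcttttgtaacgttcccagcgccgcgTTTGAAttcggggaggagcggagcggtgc
CCNB2: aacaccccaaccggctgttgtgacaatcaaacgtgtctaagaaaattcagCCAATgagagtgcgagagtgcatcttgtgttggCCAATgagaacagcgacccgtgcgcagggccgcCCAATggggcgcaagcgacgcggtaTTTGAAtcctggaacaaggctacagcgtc
MKI67: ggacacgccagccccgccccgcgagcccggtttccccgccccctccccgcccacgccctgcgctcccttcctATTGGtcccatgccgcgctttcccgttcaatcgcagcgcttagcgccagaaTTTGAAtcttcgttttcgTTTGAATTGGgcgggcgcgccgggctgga
The printed stretch of PCNA, the sliding clamp of DNA polymerase, lies at chr20:5126623-5126792 on the minus strand, E2F1, an activating E2F factor, at chr20:33686386-33686555 on the minus strand, and the helicase subunits MCM6 and MCM7 at chr2:135876444-135876613 on the minus strand and chr7:100101398-100101567 on the minus strand. Those of the mitotic kinases CDK1 and PLK1 lie at chr10:60778161-60778330 on the plus strand and chr16:23678719-23678888 on the plus strand, CCNB2, a mitotic cyclin, at chr15:59104976-59105145 on the plus strand, and MKI67, which encodes the Ki-67 proliferation antigen, at chr10:128126424-128126593 on the minus strand. Of the 43 members, 33 had a promoter in the RefSeq table, 15 of G1/S and 18 of G2/M. The E2F words TTTCCCGC, TTTGGCGC, TTTCGCGC and TTTGCCGC were searched in the 250 bases before the start on both strands, where 2 words may overlap. They occurred in 9 of 15 G1/S promoters (60%), in 2 of 18 G2/M promoters (11.1%) and in 2.79% of 27305 promoters. The CHR words TTTGAA and TTCGAA occurred in 1 of 15 (6.67%), in 9 of 18 (50%) and in 14.6%. CCAAT occurred in 8 of 15 (53.3%), in 15 of 18 (83.3%) and in 33% of all promoters, and CHR with CCAAT in 1 of 15 (6.67%), 8 of 18 (44.4%) and 5.24%. These matches describe the letters in the window and were not tested as sites.

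Features of the arrays come before the results. The arrays lay on 3 slides of 4, with P1 ACM and P3 ACM replicate 1 on slide 1, P3 ACM replicates 2 and 3 and P1 DMEM replicates 1 and 2 on slide 2, and P1 DMEM replicate 3 and P3 DMEM on slide 3. ACM and DMEM of 1 passage therefore never shared a slide. Slides 1 and 2 had only P3 ACM in common, and slides 2 and 3 only P1 DMEM. A fit with slide as a block takes its slide differences from these groups, with 1 array of each on slide 1 or 3. The share of probes well above background was 74.2% to 80.2% on slide 2 and 88.1% to 94.6% on the others. A table of normalized values that was also deposited conflicts with the scanner output, since all 12 of its columns ranked as the array of another sample, 4 of them of the same medium and 6 of the same passage. Which labels are right cannot be settled from these files, the scanner labels are used throughout, and every direction below holds under them only. Levels are log2 intensities with the 75th percentile of each array set to 0, and are compared between arrays and never between genes. Of 10 astrocyte markers, 7 were well above background on all arrays. The summed share of all 10 in the intensity ranged between 0.0103% and 0.0129% (P1 ACM), 0.0107% and 0.0126% (P1 DMEM), 0.00800% and 0.0127% (P3 ACM), and 0.00682% and 0.010% (P3 DMEM). Single markers moved more than this sum. Of the 9 astrocyte markers that passed the filter, 3 were called between the media at P1, S100B and ALDH1L1 higher in ACM and AQP4 lower. Beside these, 13.6% of all genes were called, 3418 higher and 25 lower. Of the genes well above background on all arrays 4.42% were, 869 higher and 20 lower. S100B was well above background on 7 arrays only. AQP4 was called lower at P3, beside 1.73% of all genes called in either direction. The part of these markers in the results was not tested. GFAP was well above background on 7 arrays, and of 10 neural progenitor markers 7 were so on all arrays while ATOH1, which defines granule progenitors, was so on 2.

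All 43 members were well above background on every array. The level over the 12 arrays ranged least in AURKA, a spindle pole kinase, by 0.36 on the log2 scale, and most in CDK2, the kinase of cyclin E, by 2.45. RRM2, a subunit of the reductase that makes deoxynucleotides, ranged by 2.40 and CCND1, cyclin D1, by 1.62. Some arrays held many extremes with this scaling. P3 DMEM replicate 2 held the highest level of 17 members and P3 ACM replicate 3 that of 8, all of G2/M, while P1 DMEM replicate 3 and P3 ACM replicate 1 held the lowest level of 12 members each.

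**Figure D1:**
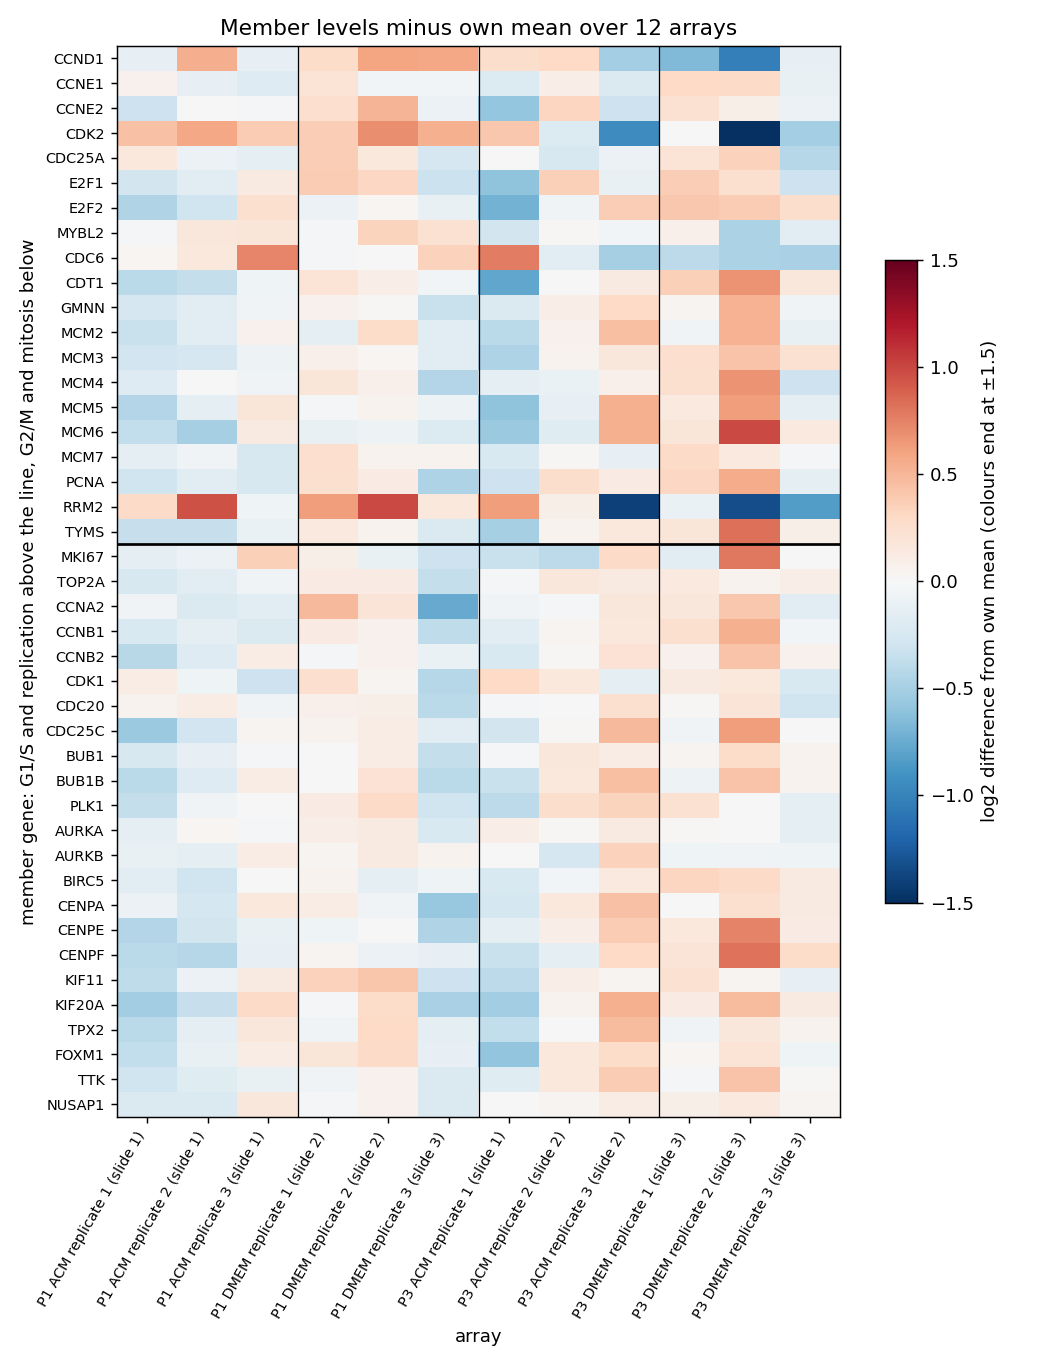
Level of each of the 43 members on each array minus the gene's own mean over the 12 arrays, in log2 units, with G1/S above the line and G2/M below and colours ending at ±1.5. P3 DMEM replicate 2 held the highest level of 17 members, and CDK2 and RRM2 were low on it and on P3 ACM replicate 3.

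Averaged over the phase, with each gene taken against its own mean over the 12 arrays, the G1/S members stood at −0.16, −0.02 and 0.03 in P1 ACM, 0.16, 0.21 and −0.05 in P1 DMEM, −0.23, 0.04 and −0.07 in P3 ACM and 0.12, 0.11 and −0.15 in P3 DMEM, in replicate order. The G2/M members stood at −0.26, −0.17 and 0.02 in P1 ACM, 0.08, 0.11 and −0.30 in P1 DMEM, −0.19, 0.04 and 0.26 in P3 ACM and 0.08, 0.32 and −0.00 in P3 DMEM. All 4 groups overlapped in each phase. With quantile normalization P3 DMEM replicate 2, the array with the most highest levels, stood at −0.05 for G1/S and 0.14 for G2/M. G1/S minus G2/M was 0.08 ± 0.07 (SD, n = 3) in P1 ACM, 0.14 ± 0.09 in P1 DMEM, −0.12 ± 0.18 in P3 ACM and −0.10 ± 0.13 in P3 DMEM. It was above 0 on all 6 P1 arrays and below 0 on 5 of 6 P3 arrays, the exception being P3 DMEM replicate 1 at 0.04, and it is a description with no test. This split moved with the scaling and the average, since quantile normalization gave 5 of 6 above and 4 of 6 below, and medians in place of means over the genes gave 3 of 6 above and 4 of 6 below. By slide, G1/S minus G2/M was 0.06 ± 0.08 on slide 1, −0.04 ± 0.20 on slide 2 and −0.02 ± 0.20 on slide 3 (SD, n = 4).

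**Figure D2:**
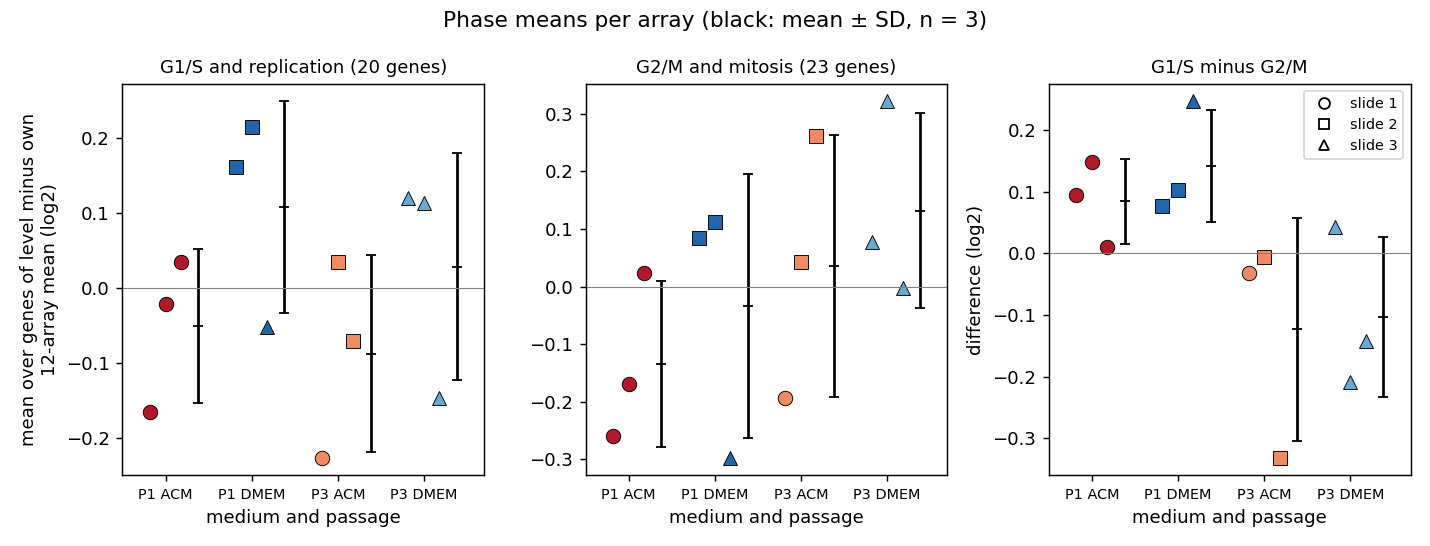
Mean level of the G1/S and of the G2/M members on each array and the difference between them (log2), by medium and passage, with the slide as the shape of the point and black bars for mean ± SD (n = 3). The groups overlapped in each phase, and G1/S minus G2/M ran from −0.33 in P3 ACM replicate 3 to 0.25 in P1 DMEM replicate 3.

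The comparison of ACM with DMEM at P1 asked what 48 h in ACM does to these genes. No member passed the thresholds of the study, more than 2-fold with an unadjusted p of 0.05 or less. In limma 0 of 43 members were called, beside 13.6% of all genes, and 0 had p of 0.05 or less, beside 24%, while the methods' t-test gave 0 called and 2 lower at p of 0.05 or less. Among the 20096 genes that, like all members, were well above background on all 12 arrays, 4.42% were called and 15.4% had p of 0.05 or less. These shares are mostly of genes higher in ACM, whereas 39 of 43 members were lower. Of all genes 3418 were called higher and 25 lower, and 5842 higher and 229 lower had p of 0.05 or less. Of the genes well above background on all arrays these numbers were 869 and 20, and 2872 and 224. The lowest adjusted p of a member was 0.343 in limma. Of the G1/S members 19 of 20 were lower in ACM (median −0.13) and of the G2/M members 20 of 23 (median −0.12), while the median of all genes was 0.15. Quantile normalization, which moved the median of all genes to 0.00, gave −0.10 and −0.04. Relative to the median of all genes the members stood at −0.28 and −0.26 with the 75th percentile, at −0.18 and −0.17 where only genes well above background on all arrays were kept (median 0.05), and at −0.10 and −0.04 with quantile normalization. With slide as a block the medians were 0.16 and 0.15, and they were 0.21 and 0.23 under the labels of the deposited table, so that the direction at P1 turned with either. The slide correction at P1 rests on 1 array, P3 ACM replicate 1, the only one of its group on slide 1. The 95% interval of the difference lay within 2-fold for 41 of 43 members, all but CCND1 and RRM2.

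Entry into the cycle is governed by cyclins and E2F factors. The levels of CCND1, the partner of CDK4 and CDK6, were 1.65, 2.32 and 1.65 in P1 ACM, 2.05, 2.37 and 2.35 in P1 DMEM, 2.03, 2.07 and 1.26 in P3 ACM and 1.11, 0.75 and 1.65 in P3 DMEM. The 2 lowest levels lay in P3 DMEM, and ACM overlapped DMEM at both passages. In P1 ACM CCNE1, cyclin E1, which activates CDK2, stood at 1.70, 1.51 and 1.44, in P1 DMEM at 1.84, 1.59 and 1.60, in P3 ACM at 1.43, 1.73 and 1.42 and in P3 DMEM at 1.93, 1.92 and 1.52. CCNE2, cyclin E2, was measured at 0.08, 0.38 and 0.37 in P1 ACM, at 0.64, 0.89 and 0.30 in P1 DMEM, at −0.20, 0.71 and 0.08 in P3 ACM and at 0.62, 0.47 and 0.30 in P3 DMEM. E2F1 had levels of −0.82, −0.72 and −0.41 in P1 ACM, −0.17, −0.23 and −0.87 in P1 DMEM, −1.15, −0.19 and −0.65 in P3 ACM and −0.18, −0.31 and −0.86 in P3 DMEM. The groups of these cyclins and of E2F1 overlapped at P1 and at P3. At P1 CCND1 differed by −0.38 ± 0.30 (SE, limma) and CCNE2 by −0.33 ± 0.24, with no p of 0.05 or less.

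The replication members license and copy DNA. The levels of CDT1, which loads the MCM helicase, were 1.98, 2.03 and 2.32 in P1 ACM, 2.60, 2.49 and 2.35 in P1 DMEM, 1.61, 2.39 and 2.53 in P3 ACM and 2.75, 3.06 and 2.56 in P3 DMEM. In P1 ACM MCM7, a helicase subunit, stood at 4.93, 5.02 and 4.83, in P1 DMEM at 5.32, 5.13 and 5.13, in P3 ACM at 4.85, 5.09 and 4.95 and in P3 DMEM at 5.36, 5.22 and 5.05. In P1 both were lower on every ACM array than on every DMEM array. MCM2, another helicase subunit, was measured at 1.94, 2.10 and 2.34 in P1 ACM, at 2.14, 2.54 and 2.10 in P1 DMEM, at 1.86, 2.34 and 2.72 in P3 ACM and at 2.22, 2.80 and 2.16 in P3 DMEM. MCM3, a helicase subunit, had levels of 3.79, 3.82 and 4.0 in P1 ACM, 4.15, 4.11 and 3.90 in P1 DMEM, 3.62, 4.13 and 4.25 in P3 ACM and 4.33, 4.50 and 4.31 in P3 DMEM. The levels of PCNA were 3.24, 3.37 and 3.30 in P1 ACM, 3.78, 3.66 and 3.08 in P1 DMEM, 3.23, 3.81 and 3.66 in P3 ACM and 3.85, 4.10 and 3.41 in P3 DMEM. MCM2 and PCNA overlapped between the media at both passages, and MCM3 was lower on all P3 ACM arrays than on all P3 DMEM arrays. Members whose arrays did not overlap at P1 were MCM7, CDT1 and CENPF, 3 of 43, all lower in ACM, beside 36.1% of all genes in either direction and 5.39% lower, and 28.5% and 6.69% of the genes well above background on all arrays. The P1 differences were −0.27 ± 0.15 for MCM7 (adjusted p = 0.343) and −0.37 ± 0.24 for CDT1 (adjusted p = 0.434) in limma.

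The G2/M members drive mitosis. In P1 ACM CCNB1, the cyclin of CDK1, stood at 4.36, 4.45 and 4.37, in P1 DMEM at 4.70, 4.65 and 4.2, in P3 ACM at 4.42, 4.63 and 4.74 and in P3 DMEM at 4.83, 5.12 and 4.55. CDK1 was measured at 2.00, 1.83 and 1.58 in P1 ACM, at 2.14, 1.93 and 1.46 in P1 DMEM, at 2.19, 2.05 and 1.75 in P3 ACM and at 2.02, 2.05 and 1.66 in P3 DMEM. CDC25C, the phosphatase that activates CDK1, had levels of 0.84, 1.1 and 1.43 in P1 ACM, 1.44, 1.5 and 1.23 in P1 DMEM, 1.11, 1.40 and 1.88 in P3 ACM and 1.33, 2.02 and 1.38 in P3 DMEM. These 3 overlapped between ACM and DMEM at both passages, with CDC25C highest on P3 DMEM replicate 2. The levels of PLK1 were −0.38, −0.08 and −0.03 in P1 ACM, 0.11, 0.27 and −0.32 in P1 DMEM, −0.41, 0.24 and 0.31 in P3 ACM and 0.21, −0.01 and −0.16 in P3 DMEM. In P1 ACM FOXM1, the factor that induces G2/M genes, stood at 1.22, 1.48 and 1.70, in P1 DMEM at 1.77, 1.88 and 1.47, in P3 ACM at 1.00, 1.75 and 1.87 and in P3 DMEM at 1.62, 1.79 and 1.52. TOP2A, the topoisomerase that untangles DNA, was measured at 2.86, 2.93 and 3.04 in P1 ACM, at 3.23, 3.22 and 2.74 in P1 DMEM, at 3.07, 3.27 and 3.24 in P3 ACM and at 3.24, 3.16 and 3.20 in P3 DMEM. Media overlapped for all 3, and every P3 ACM array was above every P1 ACM array in TOP2A. MKI67 had levels of 0.51, 0.55 and 1.00 in P1 ACM, 0.73, 0.53 and 0.33 in P1 DMEM, 0.31, 0.25 and 0.92 in P3 ACM and 0.49, 1.43 and 0.65 in P3 DMEM. The levels of KIF11, the motor that separates spindle poles, were 0.21, 0.50 and 0.72 in P1 ACM, 0.93, 1.01 and 0.28 in P1 DMEM, 0.19, 0.69 and 0.63 in P3 ACM and 0.82, 0.64 and 0.46 in P3 DMEM. In P1 ACM CENPF, a kinetochore protein, stood at 3.11, 3.08 and 3.39, in P1 DMEM at 3.55, 3.43 and 3.39, in P3 ACM at 3.18, 3.38 and 3.81 and in P3 DMEM at 3.7, 4.33 and 3.78. For CENPF all P1 ACM arrays lay below all P1 DMEM arrays, the nearest pair by less than the rounding, and the media differed by −0.26 ± 0.22 (adjusted p = 0.557, limma). The other probes of MKI67 differed by −0.18 and 0.39 at P1 where the probe used differed by 0.16, so that they disagree in sign. The second probe of CENPF differed by −0.19 at P3 and that of MCM7, both dimmer than the probe used, by −0.01 at P1 and 0.15 at P3. The CCNB1 probe used differed by −0.13 at P1 and −0.24 at P3, and its dimmer second probe by 0.11 and 0.21. For PLK1 the probe used differed by −0.18 and 0.03, and its dimmer second probe by 0.04 and 0.10. The second probes of CCNE2, MCM5 and PCNA had the sign of the probe used at both passages.

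**Figure D3:**
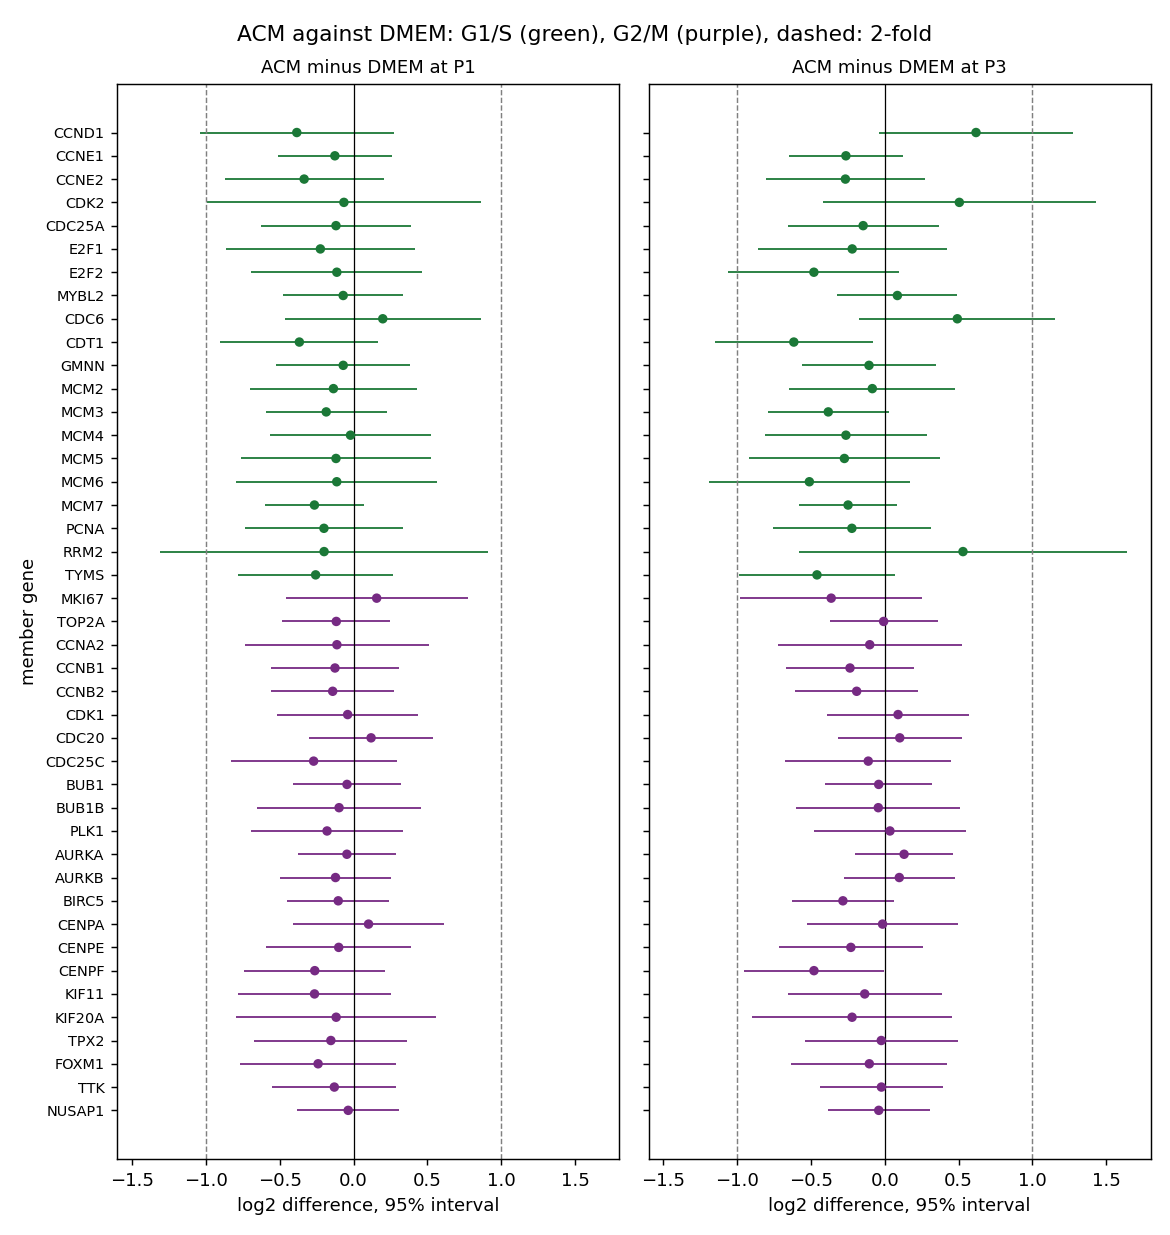
Difference of ACM minus DMEM for each of the 43 members at P1 and at P3 (log2, limma) with 95% intervals, G1/S in green and G2/M in purple, and dashed lines at 2-fold. No point lies beyond 2-fold, and the intervals of CDT1 and CENPF at P3 end below 0.

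At P3 the media again gave 0 called members of 43, beside 1.73% of all genes and 1.08% of those well above background on all arrays. At p of 0.05 or less 2 were lower in ACM, CDT1 and CENPF, beside 3.43% of all genes lower and 7.27% in either direction, and the methods' t-test gave 0. With the mean over probes 1 was left, CDT1, since CENPF then stood at −0.33. Of the G1/S members 15 of 20 were lower (median −0.24), and of the G2/M members 18 of 23 (median −0.04), with a median of all genes of 0.00. The gap between the phases depended on the processing, with medians of −0.36 and −0.34 with slide as a block, −0.11 and 0.01 with quantile normalization, and 0.11 and 0.10 under the labels of the deposited table. At P3 the slide correction rests on 1 array, P1 DMEM replicate 3, the only one of its group on slide 3. CDT1 differed by −0.62 ± 0.24 (adjusted p = 0.690, limma) and its media did not overlap. CENPF differed by −0.48 ± 0.22 (adjusted p = 0.703, limma) and its media overlapped. Not overlapping were 2 of 43 members, CDT1 and MCM3, both lower, beside 9.78% of all genes in either direction and 5.03% lower. With 1 array left out at a time CDT1 had p of 0.05 or less in 9 of 12 fits and CENPF in 2 of 12. Neither CDT1 nor CENPF kept it without P3 ACM replicate 1 (−0.33 for CDT1 and −0.34 for CENPF), without P3 DMEM replicate 2 (−0.48 and −0.29) or with slide as a block (−0.53 and −0.44), and under the labels of the deposited table they were higher in ACM by 0.39 and 0.40. CCND1 stood 0.62 ± 0.30 higher in ACM (adjusted p = 0.703, limma). BIRC5, an inhibitor of cell death and part of the chromosomal passenger complex, was measured at 3.51, 3.38 and 3.67 in P1 ACM, at 3.72, 3.53 and 3.62 in P1 DMEM, at 3.45, 3.64 and 3.83 in P3 ACM and at 3.99, 3.96 and 3.82 in P3 DMEM. The media of BIRC5 overlapped. CDK2 stood 0.50 higher in ACM under the labels of the scanner and was called at −1.01 under those of the deposited table.

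Culture for further passages was compared within each medium. In DMEM 12 of 20 G1/S members (median 0.12) and 18 of 23 G2/M members (median 0.19) were higher at P3, where the median of all genes was 0.08, and without P3 DMEM replicate 2 and P3 ACM replicate 3 the medians were 0.02 and 0.05. Of the members 3 of 43 were called, all lower at P3 and all of G1/S, beside 1.72% of all genes in either direction and 0.582% lower, and 1.12% in either direction of those well above background on all arrays. CDK2 had levels of −2.15, −2.0 and −2.20 in P1 ACM, −2.22, −1.88 and −2.05 in P1 DMEM, −2.18, −2.78 and −3.53 in P3 ACM and −2.58, −4.34 and −3.09 in P3 DMEM. The levels of RRM2 were 0.73, 1.39 and 0.38 in P1 ACM, 1.07, 1.43 and 0.60 in P1 DMEM, 1.07, 0.53 and −0.96 in P3 ACM and 0.34, −0.89 and −0.40 in P3 DMEM. In DMEM the P3 arrays of CCND1, CDK2 and RRM2 lay below all P1 arrays. CCND1 was 2.12-fold lower (−1.09 ± 0.30), CDK2 2.44-fold (−1.29 ± 0.42) and RRM2 2.55-fold (−1.35 ± 0.50), with adjusted p = 0.571 for each in limma. Without P3 DMEM replicate 2, which had the lowest CCND1 and CDK2 of all arrays, none was called, at −0.88, −0.79 and −1.06, and RRM2 was not called either without P1 DMEM replicate 2 (−1.15) or P3 DMEM replicate 3 (−1.31). With slide as a block the comparison is of the 3 P3 DMEM arrays with the 1 P1 DMEM array on slide 3. RRM2 was then at −0.92 and no longer at p of 0.05 or less, while CCND1 and CDK2 stayed past both thresholds. With normexp and quantile normalization CDK2, at −0.97, was under 2-fold and not called. Under the labels of the deposited table the 3 differed by 0.08, 0.04 and 0.18. Higher at P3 with p of 0.05 or less in DMEM were CENPE, a kinetochore motor, by 0.52 ± 0.22 and CENPF by 0.48 ± 0.22 (adjusted p = 0.571 for each, limma), 2 of 43 members beside 5.15% of all genes higher and 8.12% in either direction. This count was 8 with slide as a block, 5 with slide as a random block and 1 with the mean over probes. No share of all genes is given for these fits, so that their counts cannot be set beside one. With the mean over probes CENPF stood at 0.29, its second probe alone at 0.10. Without P3 DMEM replicate 2 CENPE and CENPF stood at 0.32 and 0.28, neither at p of 0.05 or less. Of the 12 fits without 1 array 7 kept p of 0.05 or less for CENPE and 3 for CENPF. In P1 ACM CENPE stood at −0.84, −0.68 and −0.52, in P1 DMEM at −0.47, −0.41 and −0.86, in P3 ACM at −0.55, −0.30 and −0.02 and in P3 DMEM at −0.24, 0.34 and −0.28. In DMEM its arrays did not overlap between passages. The passages did not overlap in DMEM for 12 of 43 members, 7 higher at P3 (MCM3, MCM6, E2F2, BIRC5, CCNB2, CENPE and CENPF) and 5 lower (CCND1, CDK2, RRM2, AURKB and CDC6, which loads the helicase), beside 19% of all genes in either direction, 11.2% higher and 7.8% lower.

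**Figure D4:**
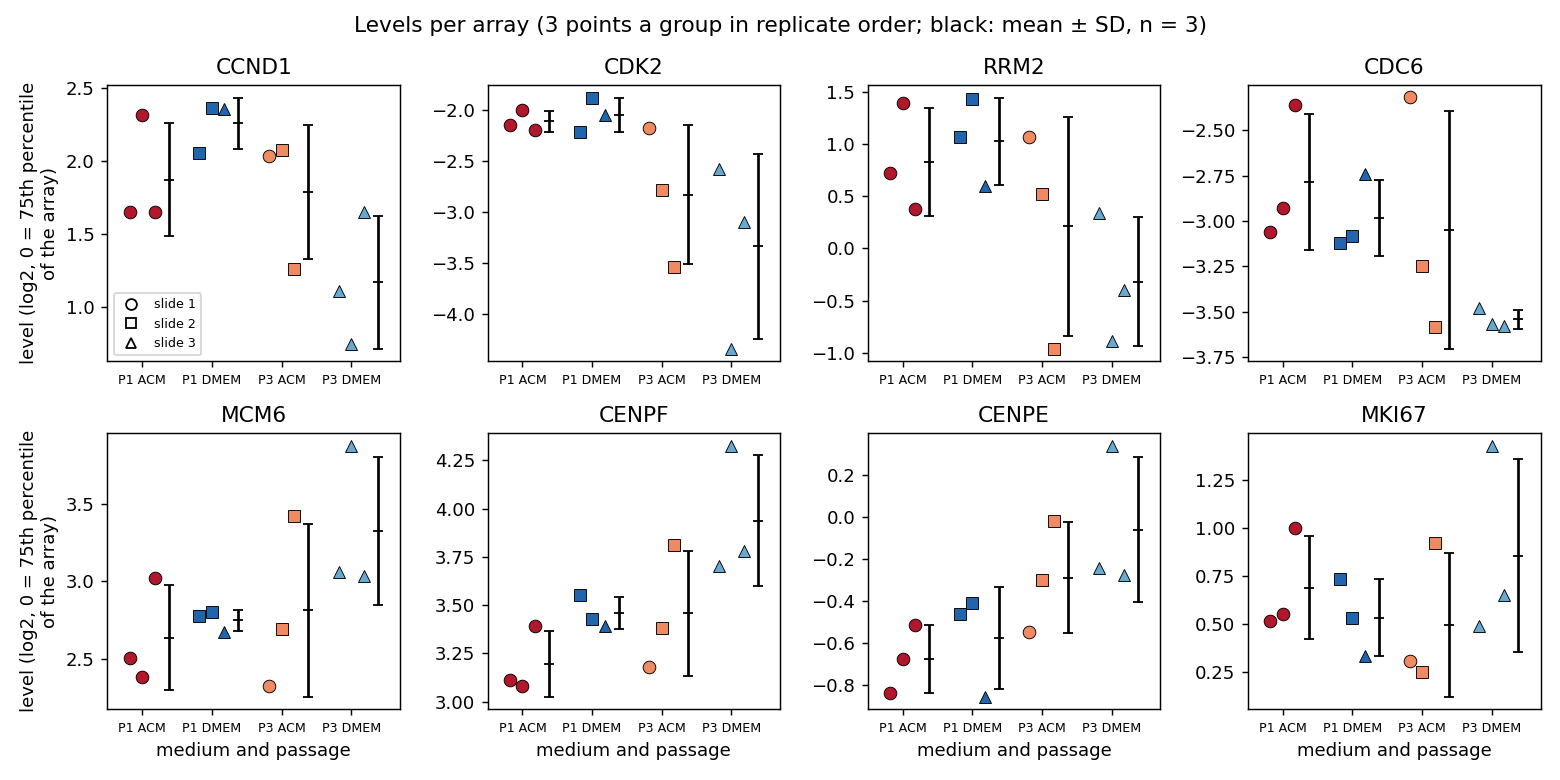
Level of 8 members on each array (log2, 0 is the 75th percentile of the array), by medium and passage, with the slide as the shape of the point and black bars for mean ± SD (n = 3). CDK2, RRM2 and CCND1 were lower on all P3 DMEM arrays than on all P1 DMEM arrays, and CENPF and CENPE higher.

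In ACM no member was called at P3 against P1, beside 7.52% of all genes, and none had p of 0.05 or less in limma, beside 13.7%. Among the genes well above background on all arrays these shares were 1.42% and 6.94%. These shares are mostly of genes lower at P3, whereas 33 of 43 members were higher. Of all genes 9 were called higher and 1891 lower, and 45 higher and 3417 lower had p of 0.05 or less. Of the genes well above background on all arrays these numbers were 3 and 282, and 37 and 1358. Of the G2/M members 22 of 23 were higher at P3 (median 0.18), all but MKI67, and of the G1/S members 11 of 20 (median 0.03), while the median of all genes was −0.10 and that of genes well above background on all arrays −0.02. Quantile normalization gave 20 of 23 and 7 of 20 higher, and slide as a block 10 of 23 and 4 of 20. Here the block compares the 1 P3 ACM array of slide 1 with the P1 ACM arrays. The count of G2/M members also depended on the probe. MKI67 stood at −0.20 with the probe used and at 0.20 and −0.34 with its other probes. The second probes of CCNB1, PLK1 and CENPF stood at −0.02, −0.21 and −0.01, where the probes used were above 0. TOP2A, the checkpoint kinase BUB1 and CCNA2, cyclin A2, 3 of 43 members, were higher on all P3 arrays, beside 6.81% of all genes in either direction and 2.7% higher. TTK, a checkpoint kinase, was measured at 2.11, 2.22 and 2.29 in P1 ACM, at 2.35, 2.46 and 2.19 in P1 DMEM, at 2.22, 2.56 and 2.78 in P3 ACM and at 2.38, 2.83 and 2.42 in P3 DMEM. MYBL2, a factor of the MuvB complex, had levels of −0.09, 0.12 and 0.13 in P1 ACM, −0.09, 0.28 and 0.17 in P1 DMEM, −0.33, −0.04 and −0.10 in P3 ACM and 0.02, −0.53 and −0.22 in P3 DMEM. Both overlapped between the passages in ACM. CDK2 differed by −0.72 ± 0.42 (adjusted p = 0.50, limma) and was called without P3 ACM replicate 1, at −1.04, and was at −0.06 with slide as a block.

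The difference of the ACM effect between passages was tested in the same fit. CCND1 alone of 43 members was called, beside 6.88% of all genes in either direction and 0.0514% higher, with a difference of 1.00 ± 0.42 (adjusted p = 0.627, limma). At p of 0.05 or less alone the share of all genes was 8.26%, and among the genes well above background on all arrays 1.72% were called. Its ACM effect was −0.38 at P1 and 0.62 at P3, and these comparisons rest on the 12 arrays given above. It missed p of 0.05 with the replicate number as a block (1.00) and with slide as a block (1.34), and was −0.50 under the labels of the deposited table.

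The slides were compared within the fit and within each slide. In limma 0 of 43 members passed an adjusted p of 0.05 for the slide term, beside 16% of all genes, and 10 had p of 0.05 or less, beside 27.9%. CCNA2 missed it narrowly, with an adjusted p of 0.05001 in limma, so that the count of 0 hangs on the threshold. The next was CDC6, with an adjusted p of 0.065 (limma). Fitted levels were higher on slide 2 than on slide 1 for 36 of 43 members, with a median of 0.39 where that of all genes was −0.23. Only P3 ACM lay on both slides, so that this compares its replicates 2 and 3 with replicate 1. Spread between replicates and slide cannot be told apart here. Quantile normalization gave medians of 0.30 for the members and 0.005 for all genes. Within slide 3 the 3 P3 DMEM arrays were higher than the P1 DMEM array in 37 of 43 members (median 0.36, all genes 0.00), with CDK2 at −1.28 and CCND1 at −1.18. Within slide 1 P3 ACM replicate 1 was higher than the mean of P1 ACM in 14 of 43 (median −0.07, all genes 0.04). Slide 2, which held P3 ACM and P1 DMEM, gave P3 ACM higher in 24 of 43 (median 0.02), with RRM2 at −1.47 and CDK2 at −1.11. No slide held both media at 1 passage, so that no value for the medium within a slide and passage could be had.

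**Figure D5:**
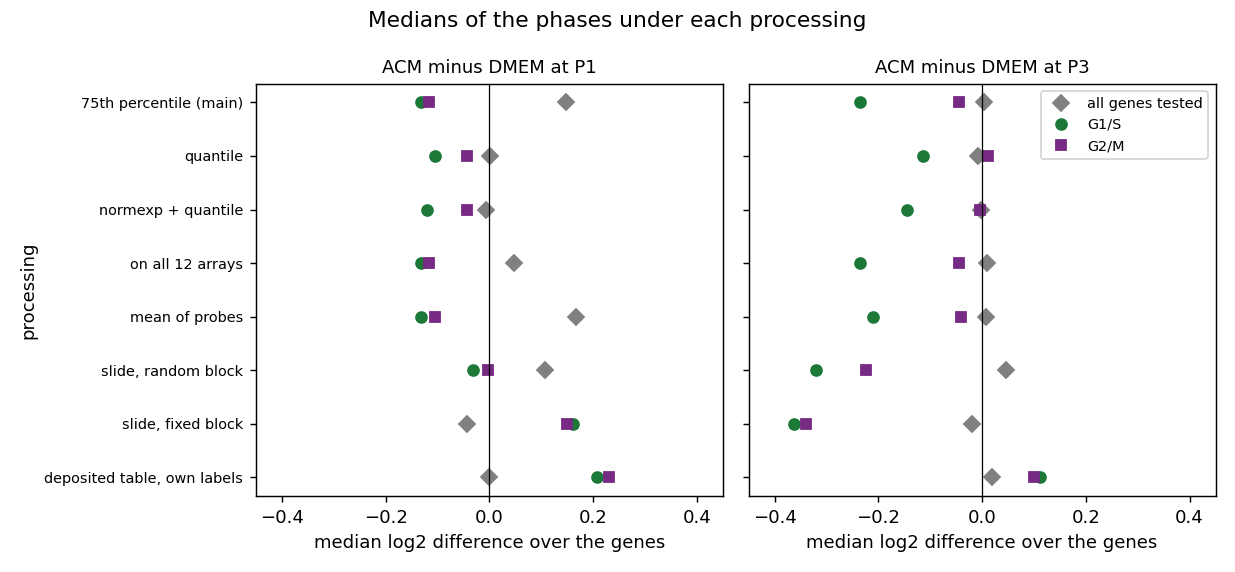
Median log2 difference of ACM minus DMEM over the G1/S members, the G2/M members and all genes tested, at P1 and at P3, under 8 ways of processing. At P1 the medians of both phases were below 0 under 6 of the ways and above 0 with slide as a fixed block and under the labels of the deposited table.

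Other cell cycle genes were counted from lists. Of 35 further replication factors, 49 mitosis genes and 27 regulators measured, none was called between the media at P1 or P3 in limma. At P1 3 of 27 regulators had p of 0.05 or less, beside 24% of all genes, named after their values were seen, with RBL1, a pocket protein, higher by 0.44 and LIN54, the DNA-binding part of MuvB, at −0.51 and E2F7, a repressing E2F factor, at −0.83. So 1 regulator was higher and 2 were lower, where of all 25275 genes 5842 were higher and 229 lower at this p. At P3 KIF15, a mitotic motor, stood at −0.52, the single gene of 49 in the mitosis list at p of 0.05 or less, beside 7.27% of all genes. The inhibitor CDKN1A differed by −0.30 at P1 and −0.33 at P3, CDKN1B by −0.35 and −0.15, and CDKN2C by −0.24 and −0.49. The G1 kinases CDK4 and CDK6 differed by −0.35 and −0.19 at P1 and by −0.46 and −0.06 at P3. CCND3 differed by −0.25 and 0.32, RB1, the retinoblastoma protein, by −0.10 and 0.09, and E2F8 by −0.13 and −0.12, none with p of 0.05 or less. Between the passages in DMEM, where 8.12% of all genes had p of 0.05 or less, 4 of 27 regulators did, TFDP2 higher and E2F4, CCND3 and E2F7 lower, with 2 of 35 replication factors lower, POLA2 and MCM10, and 2 of 49 mitosis genes higher, KIF15 and ASPM. None of these was called.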

How the data were processed

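RNA of Daoy cells was measured on 12 single-colour arrays, grouped by the labels for medium, passage and replicate. The authors deposited scanner output of Agilent Feature Extraction 11.0.1.1 with the background-corrected intensity of each spot, not normalized between arrays, and a deposited table of quantile-normalized log2 values of 30569 probes, used only as an alternative under its own labels. The study names no normalization and calls genes of more than 2-fold change with p of 0.05 or less.

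Control and outlier spots were left out, and spots of a probe were averaged. Levels were log2 intensities with the 75th percentile of each array subtracted. A probe was kept, as 31078 of 34127 were, if all arrays of some group had it well above background. Symbols came from the accession of the probe in the RefSeq table of GRCh38.p14 (75.5% of probes), and the brightest probe stood for a gene. All 12 arrays entered 1 fit of 4 group means (limma 3.58.1 under R 4.3.3 with lmFit and eBayes, two-sided tests, Benjamini-Hochberg over the kept probes, 8 residual degrees of freedom). The fit was tested on simulated data. The number of arrays limits the precision. Figures were drawn with matplotlib 3.10.9.

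Values on every array are given for CCND1, CCNE1, PCNA, MCM2, RRM2, E2F1, MKI67, TOP2A, CCNB1, CDK1, PLK1 and FOXM1, and for the 3 members of each phase with the smallest p in each comparison of 2 groups. Of the wider lists, 9 regulators are named by this rule, which would also have named called genes, and the genes with p of 0.05 or less were added after their values were seen. The members, lists and rules were chosen with earlier results of these data known.

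Whether replicate numbers pair samples was checked on deviations from the group mean. These correlated at 0.42, 0.19 and 0.27 for P1, and at 0.12, 0.12 and 0.53 between passages in ACM, so that the numbers may pair those samples. Between media at P3 (0.23, −0.19 and 0.06) and between passages in DMEM (0.36, −0.03 and 0.48) the signs differed. Replicate numbers also split by slide in P1 DMEM and P3 ACM, so that these correlations cannot settle a pairing. The main fit paired no samples, and the replicate number entered as a block in 1 alternative. The labels do not say that a number marks a shared day. As alternatives the data were quantile-normalized, background-corrected by normexp (offset 50, median spot signal), taken from the deposited table, or run with other filters, with only the arrays compared, with the methods' t-test, with replicate or slide blocks, without each array, and with the mean over probes.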

Additional observations from a re-analysis of the deposited data

Results flagged for a closer look

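CCND1, cyclin D1, was singled out because it alone of the 43 members passed the unadjusted thresholds for a difference of the ACM effect between passages. Of all genes 6.88% passed them, and 1.72% of the genes well above background on all arrays. The difference, (P3 ACM minus P3 DMEM) minus (P1 ACM minus P1 DMEM), was 1.00 ± 0.42 on the log2 scale (adjusted p = 0.627, limma). With 1 array left out at a time it ranged from 0.79 to 1.27, and p was 0.05 or less in 4 of 12 such fits. Under the labels of the deposited table it was −0.50.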

How the results depend on the processing

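Members called at P1 stayed at 0 under every alternative run. At P3 the deposited table (CDK2) and slide as a block (CCNA2) gave 1 in place of 0, and leaving out 1 array gave 0 to 1, with RRM2 called without P3 ACM replicate 3. Between passages in DMEM the count of 3 became 0 with the deposited table and 1 (RRM2) without both P3 ACM replicate 3 and P3 DMEM replicate 2, an alternative chosen after seeing the data, and 0 to 3 with 1 array left out. In ACM it was 0 to 1 with 1 array left out. For the difference between passages the count of 1 became 0 with quantile normalization, 0 with the deposited table, 0 with the replicate block, 2 (CDC6 and E2F2) with slide as a block, and 0 to 2 with 1 array left out. The replicate block, which stands for a pairing by replicate number, changed no other count of calls. The cause of these moves was not tested.

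The G1/S median at P1 was 0.21 with the deposited table, 0.16 with slide as a block and −0.24 to −0.09 with 1 array left out. The G2/M median at P1 was 0.23, 0.15 and −0.24 to −0.02. At P3 the G1/S median was 0.11 with the deposited table and −0.39 to −0.06 with 1 array left out, and the G2/M median was −0.34 with slide as a block and −0.20 to 0.05. The slide term gave 0 members under both scalings. No spot saturated, and all members were well above background on every array. Limits of these results are the 3 arrays a group, the slide layout and the unsettled labels.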
